A study of Mus musculus with 12 samples.

Results

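The members are 8 X-linked mouse genes for receptors of neurotransmitters and a neuropeptide: Gria3, Gabra3, Gabre, Gabrq, Glra2, Glra4, Htr2c and Grpr. They were taken by name from a list of 952 X-linked genes, and all 8 had a value in each of the 8 ChIP libraries, as did 698 of the 952. Each value is the enrichment of a histone mark over a gene, deposited as log2 and read here as ChIP over input, where ChIP-seq sequences the DNA bound to histones that an antibody pulls down. MD1 cells carried Smchd1 MD1/MD1, which removes the chromosomal protein SmcHD1, and WT cells carried Smchd1 +/+. Both genotypes were Xist deltaA/+, so every control also had 1 mutant Xist allele, and all were female, from a cross of C57BL6/J with a JF1 by C57BL6/J F1. The cells were mouse embryonic fibroblasts (MEFs) from embryonic stage E13.5 and epiblast stem cells (EpiSCs), a culture of the early embryo's pluripotent cells, from E6.5. Each combination of mark, genotype and cell type was 1 library, and the labels do not say how many embryos or lines it came from. No test across samples was therefore possible, and no difference has a replicate check.

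H3K9me3 and H3K27me3 are methylated forms of histone H3 found on silent chromatin. On the inactive X of female cells, H3K27me3 is laid down by Polycomb complexes after Xist RNA spreads, and SmcHD1 is needed for lasting silencing of many genes. The receptors work mainly in the nervous system. Gria3 encodes a subunit of AMPA receptors, the glutamate-gated channels of fast excitation. Gabra3, Gabre and Gabrq encode the alpha-3, epsilon and theta subunits of GABA-A receptors, and Glra2 and Glra4 encode alpha subunits of glycine receptors. Both of these are chloride channels of the Cys-loop family that mostly inhibit mature neurons. Htr2c encodes a serotonin receptor and Grpr the receptor for gastrin-releasing peptide, and both signal through G proteins.

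The genes lie in separate parts of the X, apart from a GABA-A cluster. In build mm9, Gabre (X, 69502771 to 69520060), Gabra3 (69678015 to 69901585) and Gabrq (70070517 to 70087941) share a stretch of 585 kb that holds 1 other listed gene, so their values are not independent. Gria3 (38754478 to 39031778) and Htr2c (143397056 to 143631820) lie far from it and from each other, as does Glra4 (133292213 to 133314260). Grpr (159951836 to 159987579) and Glra2 (161566949 to 161764913) are nearer to the distal end. Gria3, Htr2c, Gabra3 and Glra2 are long, from 197965 to 277301 bases, and counting error is small there. Gabre, Gabrq and Glra4, from 17290 to 22048 bases, rest on fewer reads. Glra4 lies wholly inside the listed gene BC065397 (133277496 to 133337900), and how reads of both were counted is not stated in the sources used here. No other member overlapped a listed gene.

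Promoters of 4 members are shown, a pair with like marks and a pair that contrasted. The deposited values are given for whole genes and not for promoter windows. Gabrq and Gabra3 share a cluster and were the members most alike in the marks, while Htr2c and Glra4 differed most in H3K27me3 between MD1 and WT MEFs. Each runs from 250 bases before to 50 after a RefSeq start, 5′ to 3′, in build GRCm38.p6 and not mm9, and capitals mark CpG dinucleotides.
Gabrq, plus strand, chrX:72824928-72825227: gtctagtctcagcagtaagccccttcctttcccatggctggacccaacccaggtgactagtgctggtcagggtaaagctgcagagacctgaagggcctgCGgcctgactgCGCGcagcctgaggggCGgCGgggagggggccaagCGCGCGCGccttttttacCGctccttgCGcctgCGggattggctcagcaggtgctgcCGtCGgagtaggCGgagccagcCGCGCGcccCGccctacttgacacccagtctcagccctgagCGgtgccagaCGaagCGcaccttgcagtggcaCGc
Gabra3, minus strand, chrX:72656870-72657169: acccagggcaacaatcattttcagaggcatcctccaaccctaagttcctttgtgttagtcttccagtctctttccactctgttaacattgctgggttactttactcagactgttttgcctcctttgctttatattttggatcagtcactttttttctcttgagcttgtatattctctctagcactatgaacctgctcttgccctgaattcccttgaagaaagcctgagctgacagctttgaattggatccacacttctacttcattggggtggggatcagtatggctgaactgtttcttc
Htr2c, plus strand, chrX:146962263-146962562: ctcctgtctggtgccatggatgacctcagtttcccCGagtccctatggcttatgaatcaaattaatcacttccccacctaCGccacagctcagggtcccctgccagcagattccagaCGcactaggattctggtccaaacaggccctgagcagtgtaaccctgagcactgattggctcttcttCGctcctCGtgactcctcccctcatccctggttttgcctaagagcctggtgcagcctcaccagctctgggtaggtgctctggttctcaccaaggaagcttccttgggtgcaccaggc
Glra4, minus strand, chrX:136779672-136779971: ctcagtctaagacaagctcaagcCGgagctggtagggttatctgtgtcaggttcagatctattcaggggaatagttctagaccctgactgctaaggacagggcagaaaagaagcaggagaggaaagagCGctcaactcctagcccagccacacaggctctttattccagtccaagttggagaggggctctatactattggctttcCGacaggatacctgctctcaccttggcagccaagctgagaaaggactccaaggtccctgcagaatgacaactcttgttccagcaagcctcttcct
The motif CG, the same on both strands, occurred 23 times for Gabrq, 5 times for Htr2c, 3 times for Glra4 and 0 times for Gabra3. Of 32851 mouse promoter entries, 21.5% held at least as many as Gabrq, 62.0% at least as many as Htr2c and 76.7% at least as many as Glra4, and the median was 7. A second start of Gabra3 also had 0, and the promoter of Gabre had 24. RefSeq entries were matched for 7 of the 8 members, all but Gria3.

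In WT EpiSCs the receptor genes differed widely in H3K9me3. The channel genes of the GABA-A cluster had little: 0.03 at Gabrq, −0.23 at Gabra3 and −0.37 at Gabre. Gria3 (3.63) and Htr2c (3.22) were highest, followed by Glra2 (2.33), Glra4 (2.10) and Grpr (1.04). At 12.4-fold over input, Gria3 stood at the 83.6 percentile of measured genes, and Gabre, at 0.772-fold, at the 14.8 percentile. Of the 8 members 5 were at least 2-fold over input, against 64.0% of 719 genes, with Grpr just above that threshold. In the order of levels, Glra2 and Glra4 did not differ beyond counting error, nor did the 3 GABA-A genes. The other steps, Gria3 to Htr2c, Htr2c to Glra2, Glra4 to Grpr and Grpr to Gabrq, exceeded it.

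Of the 5 marked genes, 4 sat in runs of neighbouring genes that were also at least 2-fold over input in WT EpiSCs. Gria3 lay in a run of 95 genes, Glra4 in a run of 24 from Nxf3 to Tex13a (132606638 to 135381494), Glra2 at the start of a run of 8 and Htr2c at the start of a run of 4. At Grpr the nearest genes with full data were under the threshold, at 0.31 (Ctps2) and 0.76 (Rnf138rt1, on ChIP and input counts of only 2 and 5).

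H3K27me3 in WT EpiSCs ran the other way at the top of the H3K9me3 order. Gria3 (2.49) and Htr2c (2.97) were lowest, and the others lay between 4.22 at Glra2 and 4.99 at Grpr. The upper genes Grpr, Gabrq, Gabre, Glra4 and Gabra3 stood in that order, and no neighbouring pair among them differed beyond counting error. Glra2 and Glra4 had middling H3K9me3 together with high H3K27me3. Only the 2 genes with H3K9me3 above 3 had H3K27me3 under 4.

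**Figure D1:**
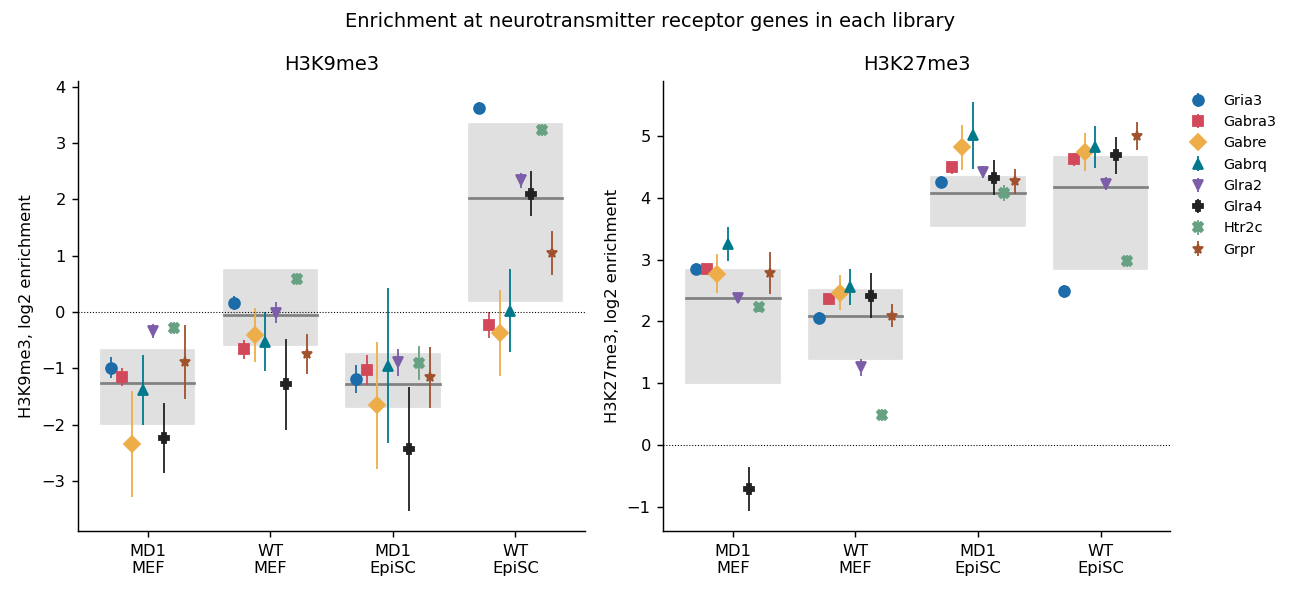
Log2 enrichment of H3K9me3 (left) and H3K27me3 (right) at each receptor gene in the 8 ChIP libraries. Symbols are single libraries with 95% counting intervals, grey boxes the range between the lower and upper quartiles of all measured genes and grey lines their median. Receptor genes lie between −2.43 and −0.89 in H3K9me3 in MD1 EpiSCs and between −0.37 and 3.63 in WT EpiSCs, and Glra4 alone is below 0 in H3K27me3, in MD1 MEFs.

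Loss of SmcHD1 in EpiSCs was accompanied by low H3K9me3 at every receptor gene. Gria3 had −1.19 in MD1 EpiSCs, against 3.63 in WT EpiSCs, a difference of −4.81 (95% counting interval −5.08 to −4.55). Glra4 differed by −4.53 (−5.70 to −3.35) and Htr2c by −4.13 (−4.45 to −3.80). The changes were −3.22 at Glra2 and −2.20 at Grpr. A decrease of at least 2-fold was found at 6 members, where 82.9% of 708 genes had one, so the share of receptor genes was near the background. After centring, as described next, 5 members had such a decrease, against 63.8% of genes. As deposited, an increase of that size was found at 0 members and 1.13% of genes. The median change was −2.71 for the members and −2.98 for all genes.

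The GABA-A genes had the smallest changes, from levels that were already near or under input in WT. Gabra3 had −1.03 in MD1 EpiSCs and −0.23 in WT EpiSCs, a change of −0.80 (−1.16 to −0.44). Gabre (−1.28, −2.65 to 0.08) and Gabrq (−0.98, −2.54 to 0.58) had intervals that included 0, on MD1 ChIP counts of 7 and 5. After centring each library on genes not rich in H3K9me3 in WT, the changes were 0.39 at Gabra3, 0.21 at Gabrq and −0.10 at Gabre. The direction at Gabra3 and Gabrq thus depends on the scaling. The GABA-A genes are themselves among the 256 of 708 genes used for centring, which also removes any decrease those genes share. The centred changes at Gabrq and Gabre lay within counting error, so the direction at Gabre is not settled either. The other 5 stayed at least 2-fold lower, from −3.63 at Gria3 to −1.01 at Grpr.

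In MD1 EpiSCs the members lay closer together than in WT EpiSCs, as did X-linked genes in general. H3K9me3 lay between −2.43 at Glra4 and −0.89 at Glra2 in MD1 EpiSCs, and between −0.37 and 3.63 in WT EpiSCs. None of the 8 was 2-fold over input, where 5.3% of 736 genes were. No neighbouring pair in the order of levels differed beyond counting error, but Glra2 and Glra4, at its ends, did. The quartiles of all measured genes were −1.69 and −0.74 in MD1 EpiSCs, and 0.19 and 3.33 in WT EpiSCs. H3K27me3 spanned 0.93 in MD1 EpiSCs, against 2.51 in WT EpiSCs. Its quartiles over all measured genes were 3.54 and 4.33 in MD1 EpiSCs, and 2.85 and 4.65 in WT EpiSCs.

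The 2 receptor genes with the most H3K9me3 in WT EpiSCs had more H3K27me3 in MD1 EpiSCs. Gria3 had 4.25 in MD1 EpiSCs and 2.49 in WT EpiSCs, a change of 1.77 (1.62 to 1.91), or 3.40-fold. Htr2c had 4.07 in MD1 EpiSCs and 2.97 in WT EpiSCs, a change of 1.10 (0.94 to 1.26). These were the only members past 2-fold, a share to be read against 22.7% of 708 genes higher and 11.3% lower. After centring, the changes were 2.23 and 1.57.

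The remaining 6 genes differed by less than 2-fold in H3K27me3 in EpiSCs. Grpr was lower, at 4.26 in MD1 EpiSCs and 4.99 in WT EpiSCs (−0.73, −1.04 to −0.42). Glra2 was slightly higher (0.18, 0.04 to 0.33). Gabra3 (−0.13), Gabre (0.07), Gabrq (0.18) and Glra4 (−0.36) had counting intervals that included 0. Centring turned Gabra3 and Glra4 to 0.34 and 0.10. Glra4 was thus like Gria3 and Htr2c in the size of its H3K9me3 decrease and unlike them in H3K27me3.

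**Figure D2:**
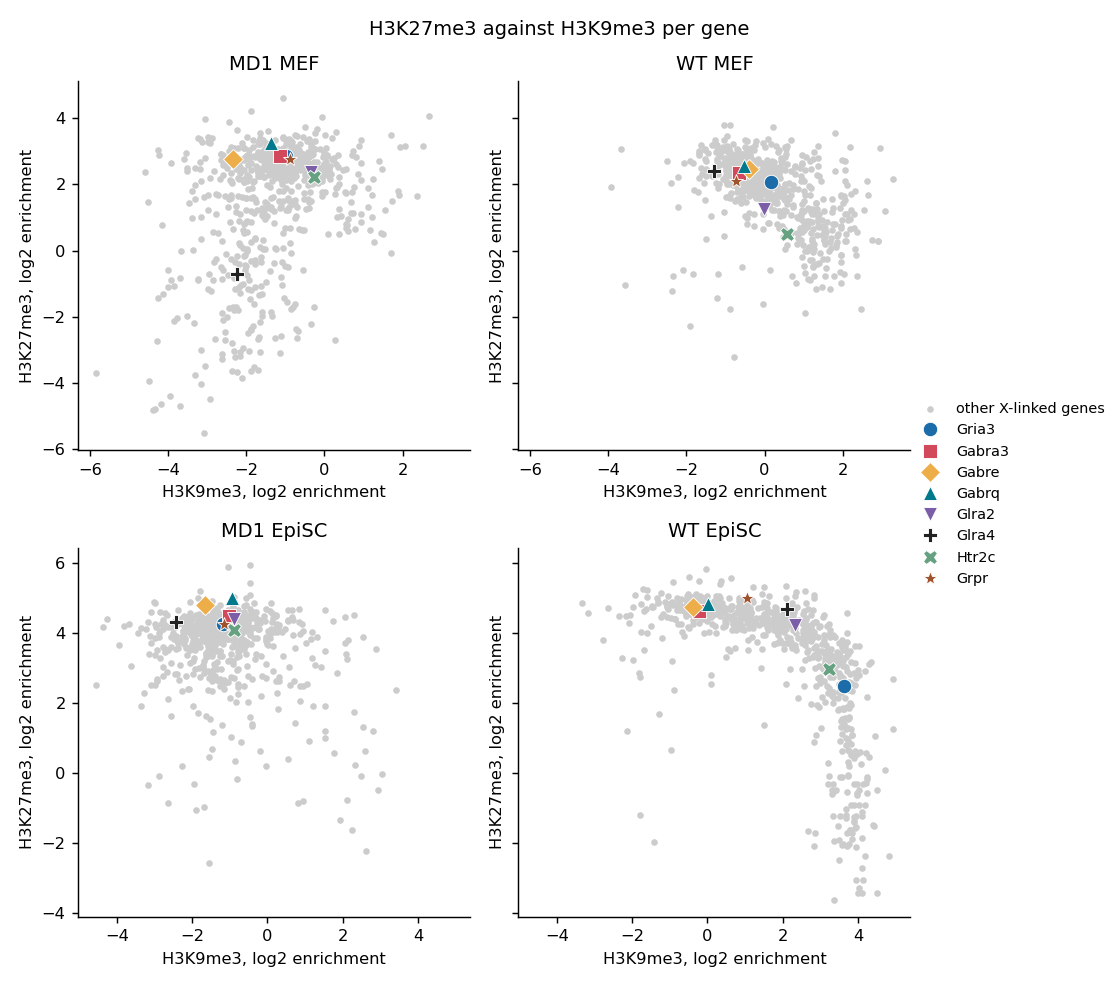
H3K27me3 against H3K9me3, both as log2 enrichment, for every gene with values (grey) and the receptor genes (symbols), in 1 panel per genotype and cell type. Gria3 and Htr2c sit at the bend of the WT EpiSC cloud, at H3K9me3 above 3, and join the other receptor genes in MD1 EpiSCs.

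In WT MEFs the receptor genes carried little H3K9me3. Htr2c was highest at 0.58, Gria3 had 0.16 and Glra2 −0.01, and the other 5 ran from −0.41 at Gabre to −1.29 at Glra4. None reached 2-fold over input, where 20.3% of 747 genes did. Htr2c exceeded Gria3 beyond counting error, and no later step in the order did.

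H3K9me3 was lower still in MD1 MEFs as deposited. It lay between −2.34 at Gabre and −0.28 at Htr2c in MD1 MEFs, and between −1.29 and 0.58 in WT MEFs. In MD1 MEFs 0 of the 8 were 2-fold over input, where 2.92% of 754 genes were. All 8 changes were below 0, from −1.94 (−2.99 to −0.88) at Gabre to −0.15 (−0.89 to 0.59) at Grpr. Gabre and Gria3 (−1.15, −1.38 to −0.92) were past 2-fold, or 2 of 8 against 51.3% of 739 genes, and 0 were higher, against 0.677%. After centring neither was past 2-fold, where 187 of 739 genes were at least 2-fold lower. Grpr (0.84), Glra2 (0.66), Gabra3 (0.50), Gabrq (0.14), Htr2c (0.13) and Glra4 (0.04) then lay above 0. Gabre (−0.95) and Gria3 (−0.16) stayed below 0, but both centred changes lay within counting error. All 8 were under 2-fold over input in WT MEFs and so belong to the 590 of 739 genes used for centring. Centring thus also removes any decrease that those genes share. At none of the 8 members do these values tell a decrease in MEFs apart from library scaling and counting error.

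**Figure D3:**
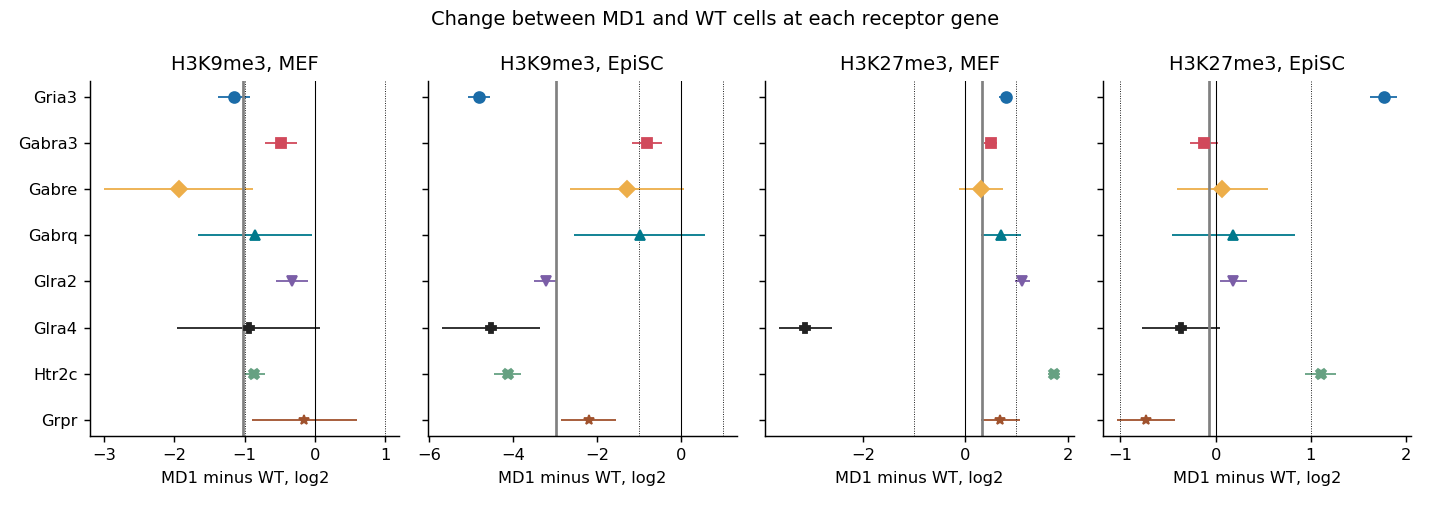
MD1 minus WT log2 change at each receptor gene for H3K9me3 and H3K27me3 in MEFs and EpiSCs, with 95% counting intervals. The grey line is the median of all genes and dotted lines mark 2-fold, on a scale of its own in each panel. Glra4 lies at −3.12 for H3K27me3 in MEFs, where the other 7 lie between 0.31 and 1.74.

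H3K27me3 in MEFs separated Glra4 from every other receptor gene. Glra4, the glycine receptor subunit, had −0.70 in MD1 MEFs, against 2.42 in WT MEFs, a change of −3.12 (−3.64 to −2.61), or 8.71-fold lower. The other 7 were higher in MD1 MEFs, and the change at Gabre (0.31, −0.11 to 0.73) had an interval that included 0. Past 2-fold, 1 member was lower, against 24.0% of 739 genes, and 2 were higher, against 22.3%. In EpiSCs Glra4 had high H3K27me3 in both genotypes, with 4.32 in MD1 EpiSCs and 4.69 in WT EpiSCs. The difference between the 2 changes, −2.76 in MEFs relative to EpiSCs, had a counting interval of −3.41 to −2.10, and was −3.50 after centring.

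Morf4l2 and BC065397, next to or over Glra4, were low in H3K27me3 in MD1 MEFs as well. Morf4l2, a chromatin factor gene 14.0 kb to its left, had −3.21 in MD1 MEFs and 1.87 in WT MEFs. BC065397, which spans Glra4, had −0.45 in MD1 MEFs and 2.50 in WT MEFs. Farther out, Tceal3 on the left (3.43 in MD1 MEFs, 2.55 in WT MEFs) and Rab9b on the right (2.25 in MD1 MEFs, 1.90 in WT MEFs), were not lower. Of 14 genes described within 500 kb, 3 were at least 2-fold lower and 4 were at least 2-fold higher. The third lower gene was Slc25a53, 241 kb to the right between gene centres, with 0.52 in MD1 MEFs and 2.22 in WT MEFs. What part the overlapping reads of BC065397 have in the value of Glra4 was not tested.

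Htr2c and Glra2 had the largest H3K27me3 increases among the members in MD1 MEFs. Htr2c had 2.23 in MD1 MEFs and 0.49 in WT MEFs, a change of 1.74 (1.62 to 1.85), the largest among the 8 members. Its WT MEF value stood at the 12.0 percentile of measured genes and its MD1 value at the 44.8 percentile. Glra2 had 2.38 in MD1 MEFs and 1.26 in WT MEFs, a change of 1.12 (0.96 to 1.27) that became 0.84 after centring. The change at Htr2c was then 1.46. Il13ra2, which encodes an interleukin-13 receptor and is the nearest gene to the right of Htr2c with full data, had 2.67 in MD1 MEFs and 0.75 in WT MEFs.

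Gria3 differed in H3K27me3 from the genes to its right in MEFs. It had 2.85 in MD1 MEFs and 2.06 in WT MEFs, a change of 0.79 (0.66 to 0.91) that was 0.52 after centring. Thoc2, an mRNA export gene 116 kb to the right, had −1.86 in MD1 MEFs and 1.69 in WT MEFs. The caspase inhibitor gene Xiap and the cohesin gene Stag2 beyond it changed by −3.90 and −3.19. In EpiSCs, by contrast, H3K27me3 was higher in MD1 at all 4, by 1.77 at Gria3, 2.43 at Thoc2, 3.07 at Xiap and 1.69 at Stag2. Thoc2, Xiap and Stag2 were the only other measured genes within 500 kb of Gria3, and the windows were set after the values were seen. On the left, the nearest gene with full data, 6030498E09Rik, lies 2439 kb away and was higher like Gria3, with 2.76 in MD1 MEFs and 1.08 in WT MEFs. In H3K9me3 in MEFs the change at Gria3 (−1.15) was close to the median of the 3 genes (−1.12) and to that of all genes (−1.02).

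**Figure D4:**
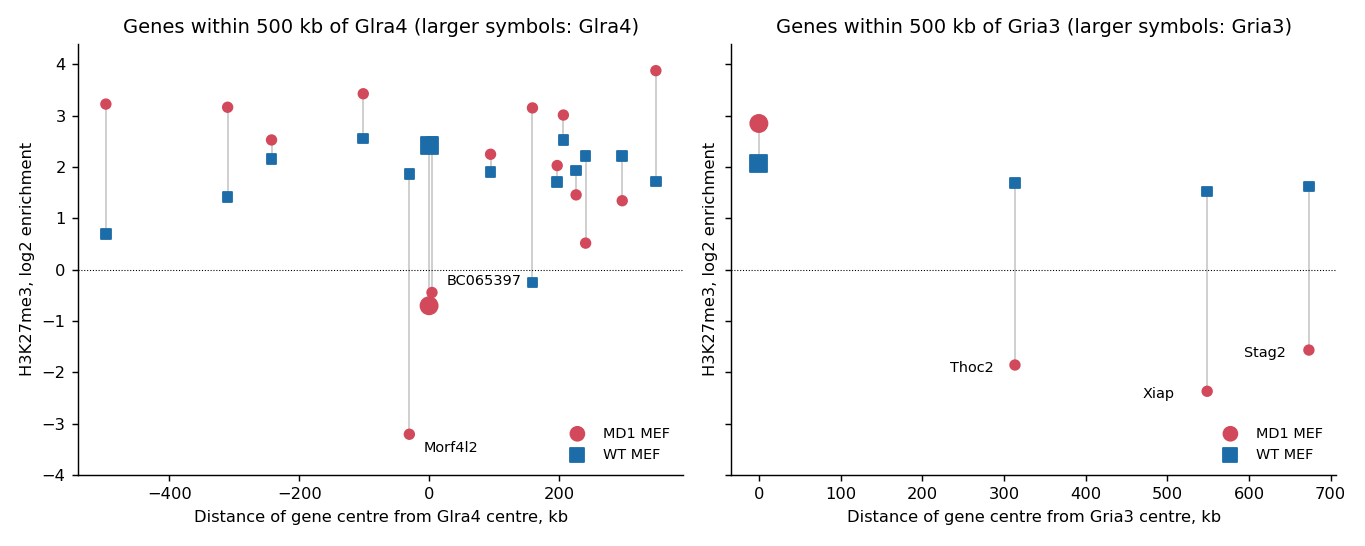
H3K27me3 (log2 enrichment) in MD1 MEFs (circles) and WT MEFs (squares) at the genes described within 500 kb of Glra4 (left) and Gria3 (right), by the distance of each gene's centre in kb. Grey lines join the 2 values of a gene. Glra4 shares low MD1 values with Morf4l2 and the overlapping BC065397, whereas Gria3 stays at 2.85 while the 3 genes to its right lie below −1.5 in MD1 MEFs.

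The remaining receptor genes had modest increases in MEFs. Gabrq had 3.25 in MD1 MEFs and 2.55 in WT MEFs (0.70, 0.30 to 1.10), the highest H3K27me3 level of the members in both libraries. Grpr had 2.78 in MD1 MEFs and 2.09 in WT MEFs (0.69, 0.30 to 1.08). Gabra3 had 2.85 in MD1 MEFs and 2.36 in WT MEFs (0.49, 0.38 to 0.61). Without Glra4, the members spanned 1.02 in MD1 MEFs and 2.06 in WT MEFs, and over all 8 they spanned 3.95 in MD1 MEFs and 2.06 in WT MEFs. The spread was thus wider in MD1 MEFs with Glra4 and narrower without it.

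Between cell types, both marks were lower in MEFs than in EpiSCs at most receptor genes of WT cells. H3K9me3 was at least 2-fold lower in WT MEFs at Gria3 (−3.46), Glra4 (−3.38), Htr2c (−2.65), Glra2 (−2.35) and Grpr (−1.78), 5 of 8 against 68.2% of 711 genes, and higher at 0, against 3.52%. H3K27me3 was at least 2-fold lower at 7 of 8, against 78.2%, with Gria3 as the exception at −0.42, and higher at 0, against 6.47%. In MD1 cells H3K9me3 differed by less than 2-fold at all 8, between −0.69 at Gabre and 0.62 at Htr2c, against 19.0% of 726 genes lower and 10.3% higher. H3K27me3 in MD1 cells was at least 2-fold lower in MEFs at all 8, against 82.5% lower and 1.93% higher among genes, with −5.02 at Glra4. After centring, which removed a median difference of −1.70, Glra4 alone of the members stayed 2-fold lower, where 187 of 726 genes were. Gria3 (0.30), Grpr (0.22) and Gabra3 (0.064) then lay above 0. Library medians moved with these differences: over the genes compared in WT cells they differed between MEFs and EpiSCs by −2.14 for H3K9me3 and −2.05 for H3K27me3. Relative to the medians, 2 members were at least 2-fold lower and 3 at least 2-fold higher in H3K9me3 in WT cells. Of 711 genes, 90 were lower and 244 higher by that measure. Gria3 was 1.63 higher in H3K27me3, relative to the medians.

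For each receptor gene, the gene with the most similar 8 values was found by Euclidean distance on the log2 scale. For Glra4 it was BC065397, at a distance of 0.62, whose interval contains it. Gria3 was closest to Gab3 (0.65), Htr2c to Il1rapl1 (0.61), Glra2 to the dystrophin gene Dmd (0.55) and Grpr to 3632454L22Rik (0.58). Gabra3 (0.43) and Gabrq (0.63) were both closest to Reps2, and Gabre to Tlr7 (1.06). The median distance to all other genes ran from 3.27 for Grpr to 4.56 for Glra4. Among the members themselves, Gabra3 and Gabrq were nearest (0.80), and Gabre and Htr2c farthest apart (5.16). The glycine receptor genes Glra2 and Glra4 were 4.32 apart, and the G protein-coupled receptor genes Htr2c and Grpr 3.73, and Gabra3 was about as near to Grpr (1.40) as to its cluster neighbour Gabre (1.43).

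Besides the receptors, 2 lists of related X-linked genes were described. The first held 13 genes for synaptic proteins and transmitter breakdown, such as Nlgn3, Dlg3, Syn1 and the monoamine oxidases Maoa and Maob. In MD1 EpiSCs H3K9me3 was reduced at least 2-fold at 12 of 13, against 82.9% of all genes, from −6.37 at Syp to 0.39 at Iqsec2, with a median of −2.87. The interval at Nlgn3 (−1.04, −2.11 to 0.02) included 0. H3K27me3 in EpiSCs was at least 2-fold higher at 2, Syn1 and Maoa (1.38), against 22.7% of genes, and lower at 2, Nlgn3 and Syp (−1.30), against 11.3%. In MEFs H3K27me3 was past 2-fold higher at 3, Maoa, Maob and Il1rapl1 (1.42), against 22.3% of genes, and lower at 1, Nlgn3 (−1.09), against 24.0%, with a median of 0.58. That of all genes was 0.34. H3K9me3 in MEFs was at least 2-fold lower at 4 of 13, against 51.3% of genes, with a median of −0.62.

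The second list held 17 other genes for G protein-coupled receptors, of which 15 had values in both EpiSC genotypes and 16 in both MEF genotypes. H3K9me3 was at least 2-fold lower in MD1 EpiSCs at 9 of 15, against 82.9% of genes, with a median of −2.55. Counting intervals included 0 at 3 of the 9, Avpr2, Gpr119 and Gpr165. Gpr82 was past 2-fold higher (1.45, −2.85 to 5.75), against 1.13% of genes, on a ChIP count of 1 in each genotype. In MEFs it was past 2-fold lower at 7 of 16, against 51.3% of genes, with a median of −0.94, and higher at Gpr82 (2.73, −0.32 to 5.79) and Lpar4 (1.10, 0.13 to 2.07), against 0.677%. Intervals included 0 at 4 of the 7, Brs3, Avpr2, P2ry4 and Cxcr3. H3K27me3 was at least 2-fold lower at 0 of them in either cell type, against 11.3% of genes in EpiSCs and 24.0% in MEFs. It was higher at Gpr165 (1.36) in EpiSCs, against 22.7%, and at Gpr50 (1.59) in MEFs, against 22.3%. Its median change was 0.27 in EpiSCs and 0.11 in MEFs. With 1 library per group these counts have no test.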

How the data were processed

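Per the labels' protocols, the NEBNext Ultra II kit was used for libraries of antibody-bound DNA and of input. The processing notes of the submitters name cutadapt, BWA, SAMtools and build mm9. The authors deposited log2 enrichment per X-linked gene, 1 value for each of 8 ChIP libraries. Versions, the counting rule and which X chromosome was counted are not stated there. The values behaved as ratios of whole numbers times 1 unknown constant per library, which every difference between libraries includes. In each library 100% of values matched such a ratio (denominator up to 30000, relative tolerance 1e-12), against 0% of H3K9me3 values moved by a small random amount. The smallest matching numbers, called counts here, gave 95% counting intervals (normal approximation). They may be fractions of the real counts, and the intervals cover counting error only. In simulations of the 4 combinations of genotype and cell type, 81.5% to 86.2% of genes were recovered exactly. H3K9me3 counts summed over genes were 98736 (MD1 MEF), 122980 (WT MEF), 33117 (MD1 EpiSC) and 188886 (WT EpiSC).

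Changes are MD1 minus WT or MEF minus EpiSC, called at 2-fold. Alternatives were centring, a pseudocount of 0.1, leaving out the lowest 10% of genes, a 3-fold threshold and an input count of at least 20. Besides the members, the nearest genes with full data, the gene at the smallest distance and 2 lists are named. Genes in windows of 500 kb, among them Xiap, Stag2, Tceal3, Rab9b and BC065397, were chosen after their values were seen. Another 2 genes, 1 of the synaptic list and 1 near Glra4, are not reported here and are left out of list, neighbour and window values. The members and lists were chosen with earlier results of these data known. Histone marks do not measure expression, so the cell type and genotype labels were not checked. Python 3.11.15 and pandas 2.3.3 were used.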

Additional observations from a re-analysis of the deposited data

Results flagged for a closer look

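At 2 receptor genes the H3K27me3 change between MD1 and WT had opposite signs in the 2 cell types as deposited. The median change of all genes also did, at 0.34 in MEFs and −0.07 in EpiSCs. The share of all genes with opposite signs was not counted. At Grpr the change was 0.69 in MEFs and −0.73 in EpiSCs, a difference of 1.42 with a 95% counting interval of 0.93 to 1.92. After centring the changes were 0.42 and −0.27, the second within its 95% counting error, and the difference was 0.68. At Gabra3 the change was 0.49 in MEFs and −0.13 in EpiSCs (−0.27 to 0.02, an interval that includes 0), a difference of 0.62 (0.43 to 0.81). After centring both were above 0, at 0.22 in MEFs and 0.34 in EpiSCs. With 1 library per group neither difference was tested across samples.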

How the results depend on the processing

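No paired analysis was possible because each group has 1 library. Depth is unknown beyond the recovered counts, which limit H3K9me3 at Gabre, Gabrq and Glra4 in MD1 EpiSCs most. Centring was on genes not rich in H3K9me3 in WT for genotype comparisons and on all genes for cell type comparisons. For genotype comparisons it subtracted −1.19 (H3K9me3) and −0.47 (H3K27me3) in EpiSCs and −0.99 and 0.27 in MEFs. Of 84 recomputed member counts, 74 stayed within 1.5 times and 10 did not. For MD1 against WT, the members lower in H3K9me3 in MEFs numbered 2 as deposited, 0 after centring and 1 at 3-fold. After centring 187 of 739 genes were lower. Members higher in H3K27me3 numbered 2 in EpiSCs and 1 at 3-fold, and 2 in MEFs, 1 after centring and 1 at 3-fold. In MEFs 118 of 739 genes were higher after centring. The 3-fold counts are given without a share of all genes. For MEF against EpiSC, centring left 2 members lower and 3 higher in H3K9me3 in WT, in place of 5 and 0. Over all genes it left 90 lower and 244 higher of 711. In H3K27me3 in WT it left 0 lower and 1 higher in place of 7 and 0, and over all genes 17 and 161 of 711. In H3K27me3 in MD1 it left 1 lower in place of 8, and over all genes 187 lower and 90 higher of 726. Among single changes past 2-fold as deposited it turned the sign of 4, all for MEF against EpiSC: H3K9me3 in WT at Grpr (0.36), and H3K27me3 in MD1 at Gria3 (0.30), Grpr (0.22) and Gabra3 (0.064).

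Over all genes, centring moved lower calls from 98.7% to 77.3% of the 2-fold calls for H3K9me3 in MEFs (379 lower and 5 higher as deposited, 187 and 55 after), from 33.2% to 17.0% for H3K27me3 in EpiSCs (80 and 161, then 46 and 224) and from 51.8% to 62.1% for H3K27me3 in MEFs (177 and 165, then 193 and 118). For MEF against EpiSC it moved them from 95.1% to 26.9% for H3K9me3 in WT, from 92.4% to 9.55% for H3K27me3 in WT and from 97.7% to 67.5% for H3K27me3 in MD1. The cause of these shifts was not tested.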

Other observations

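Gria3, Gabra3, Glra2 and Htr2c are among 104 X-linked genes of at least 100 kb with values in both genotypes. In MD1 MEFs, 21.2% of these long genes were at least 2-fold lower in H3K9me3, against 56.2% of the 635 shorter genes. Their median H3K27me3 change in MEFs was 0.55 without the members, and 0.29 in shorter genes. In MD1 EpiSCs, H3K9me3 was at least 2-fold lower in 73.1% of the long genes and 84.6% of the 604 shorter ones. The length limit was set after the data were seen, and no test was made.

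Around Grpr, H3K9me3 in MEFs as deposited was at least 2-fold lower in MD1 at 4 of the 5 other measured genes within 500 kb. Among all 739 genes, 51.3% were. The 5 had a median change of −1.39, where Grpr changed by −0.15 and the median of all genes was −1.02. One of the 5, Rnf138rt1, rests on H3K9me3 counts of 1 in MD1 MEFs and 4 in WT MEFs. Around Htr2c both measured genes within 500 kb were at least 2-fold higher in H3K27me3 in MD1 MEFs, as Htr2c was, against 22.3% of 739 genes. The windows were set after the values were seen, and no test was made.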
